A study of Mus musculus with 15 samples.

Results

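Besides the insulin-producing beta cells, the pancreatic islet holds alpha, delta, PP and epsilon cells, and 9 genes that mark these cells were followed here in the embryonic mouse pancreas: Gcg, Irx1, Irx2 and Ttr of alpha cells, Sst and Hhex of delta cells, Ppy and Pyy of PP cells and Ghrl of epsilon cells. They were found by gene symbol among the 25292 genes of the count table. All 9 matched 1 row each, and all 9 had enough reads to be tested.

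RNA sequencing was done on 15 poly(A) libraries of C57/Bl6J mouse pancreas in 5 groups of 3, each library a pool of up to 3 organs or explants by the study's methods. Fresh pancreata at 14.5 days post coitum (dpc) were either wild type (wt) or carried the label S1pr2 null, for the allele S1pr2tm1Rlp, which disrupts the gene of S1pr2, a receptor for the signalling lipid sphingosine-1-phosphate. Wild-type explants of 14.5 dpc, dorsal buds by the methods, were grown for 2 days at an air-liquid interface. They received standard medium (control), 15 μM of the S1pr2 antagonist JTE013 (JTE), or 15 μM JTE013 with 50 ng/ml connective tissue growth factor (JTE + CTGF).

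All islet cell types arise from progenitors that transiently express Neurog3. Alpha cells secrete glucagon, delta cells somatostatin, PP cells pancreatic polypeptide and epsilon cells ghrelin, and each hormone is cut from a precursor protein in secretory granules. Glucagon is among the first hormones made in the mouse pancreatic bud, while delta and PP cells gain in number later in gestation. Peptide YY is made in the embryo by most kinds of early islet endocrine cell. Irx1 and Irx2 encode homeobox factors enriched in alpha cells, Hhex encodes a homeobox factor needed by delta cells and active earlier in the pancreatic bud, and Ttr encodes the thyroid hormone carrier transthyretin, which alpha cells and the liver both make.

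The libraries held 11402804 to 13828737 assigned reads. In every group the 3 libraries differed by more than sampling noise, and JTE 3 stood farthest from its group. The libraries labelled S1pr2 null held 1486, 1368 and 1609 S1pr2 reads and the wt libraries 858, 796 and 812, so more reads were counted for the gene under the null label. The allele carries a Neo cassette inserted in the gene, and a count over the whole gene includes reads of a disrupted transcript, so the counts do not check the label. In whole-organ RNA, fewer cells of a type and less transcript per cell cannot be told apart.

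Each gene lay in a single row. Gcg (ENSMUSG00000000394) spans chr2:62474530-62483650 in mm10, and Sst (ENSMUSG00000004366) spans chr16:23889581-23890844. Ppy (ENSMUSG00000017316, chr11:102099930-102101319) and Pyy (ENSMUSG00000017311, chr11:102106676-102107832) are neighbours, 5356 bases apart on the same strand. Irx1 (ENSMUSG00000060969, chr13:71957921-71963723) and Irx2 (ENSMUSG00000001504, chr13:72628820-72634196) lie on 1 chromosome, 665096 bases apart and on opposite strands. Hhex (ENSMUSG00000024986) spans chr19:37432887-37440728 and Ghrl (ENSMUSG00000064177) chr6:113716119-113719880. Of the 50-base words in the Ghrl transcripts, 9.91% also occur, on either strand, in transcripts of another gene, and 2 genes on the opposite strand overlap it. The Ghrl counts are therefore less certain. For Irx2 and Hhex this share was at most 0.48%, and for the other 6 genes it was 0. Hhex and Ttr are each overlapped by 1 gene on the opposite strand.

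The promoters of 4 hormone genes are shown, Sst and Gcg because they moved most differently and Ppy and Pyy because they are neighbours that moved in the same direction. Each is the 250 bases before the transcript start, on the minus strand of GRCm38.p6 and as given by RefSeq. Capitals mark the palindrome TGACGTCA (the cAMP response element) and the homeobox core TAAT or its reverse complement ATTA, which do not overlap. The windows are Sst chr16:23890845-23891094, Gcg chr2:62483654-62483903, Ppy chr11:102101320-102101569 and, for the most upstream of 2 starts, Pyy chr11:102107833-102108082.
Sst: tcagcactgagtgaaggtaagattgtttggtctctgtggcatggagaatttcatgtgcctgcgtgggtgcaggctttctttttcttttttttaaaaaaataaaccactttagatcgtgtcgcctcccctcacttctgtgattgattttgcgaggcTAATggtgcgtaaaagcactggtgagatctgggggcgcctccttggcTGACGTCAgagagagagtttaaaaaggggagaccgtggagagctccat
Gcg: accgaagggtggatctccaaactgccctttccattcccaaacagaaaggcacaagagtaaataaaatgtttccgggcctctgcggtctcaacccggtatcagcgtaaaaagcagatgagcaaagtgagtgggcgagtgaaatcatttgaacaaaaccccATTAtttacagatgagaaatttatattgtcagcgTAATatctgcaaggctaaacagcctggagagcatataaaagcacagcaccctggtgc
Ppy: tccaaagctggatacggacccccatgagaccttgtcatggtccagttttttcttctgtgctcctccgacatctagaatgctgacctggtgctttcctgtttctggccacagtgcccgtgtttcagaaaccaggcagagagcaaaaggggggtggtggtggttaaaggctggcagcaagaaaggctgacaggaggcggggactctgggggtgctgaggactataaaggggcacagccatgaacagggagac
Pyy: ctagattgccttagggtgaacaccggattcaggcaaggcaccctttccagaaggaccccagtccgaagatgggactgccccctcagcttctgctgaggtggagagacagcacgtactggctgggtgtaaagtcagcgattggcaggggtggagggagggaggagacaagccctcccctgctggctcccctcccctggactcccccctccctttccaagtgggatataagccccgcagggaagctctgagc
The Sst window held 1 palindrome, whose first base is at −48 from the transcript start, and 1 homeobox core. The Gcg window held no palindrome and 2 homeobox cores, and the Ppy and Pyy windows held neither motif. Among 32851 promoter windows of the same length, 1.55% held the palindrome and 54.9% a homeobox core. No binding was measured.

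Fresh pancreata and explants differed first in which of the 9 genes was the most abundant per kilobase of transcript. In wt the order by mean normalised reads per kilobase was Gcg 8803 ± 162 (SD, n = 3), Ttr 3984 ± 156, Pyy 2485 ± 480, Ghrl 889 ± 188, Sst 234 ± 89.4, Hhex 138 ± 4.16, Ppy 109 ± 14.4, Irx1 72.6 ± 3.74 and Irx2 67.2 ± 6.29. In control explants it was Pyy 9570.1 ± 600, Gcg 7074 ± 1553, Sst 4936 ± 271, Ttr 4023 ± 244, Ghrl 2069 ± 298, Ppy 701 ± 31.1, Hhex 154 ± 8.70, Irx1 59.3 ± 3.20 and Irx2 54.9 ± 12.1. The 3 transcription factor genes were thus below all 5 hormone genes in control explants, and Sst was below Ghrl in wt but above Ttr and Ghrl in control. Normalised reads, used below, are counts divided by the library's effective size relative to the mean of all libraries.

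**Figure D1:**
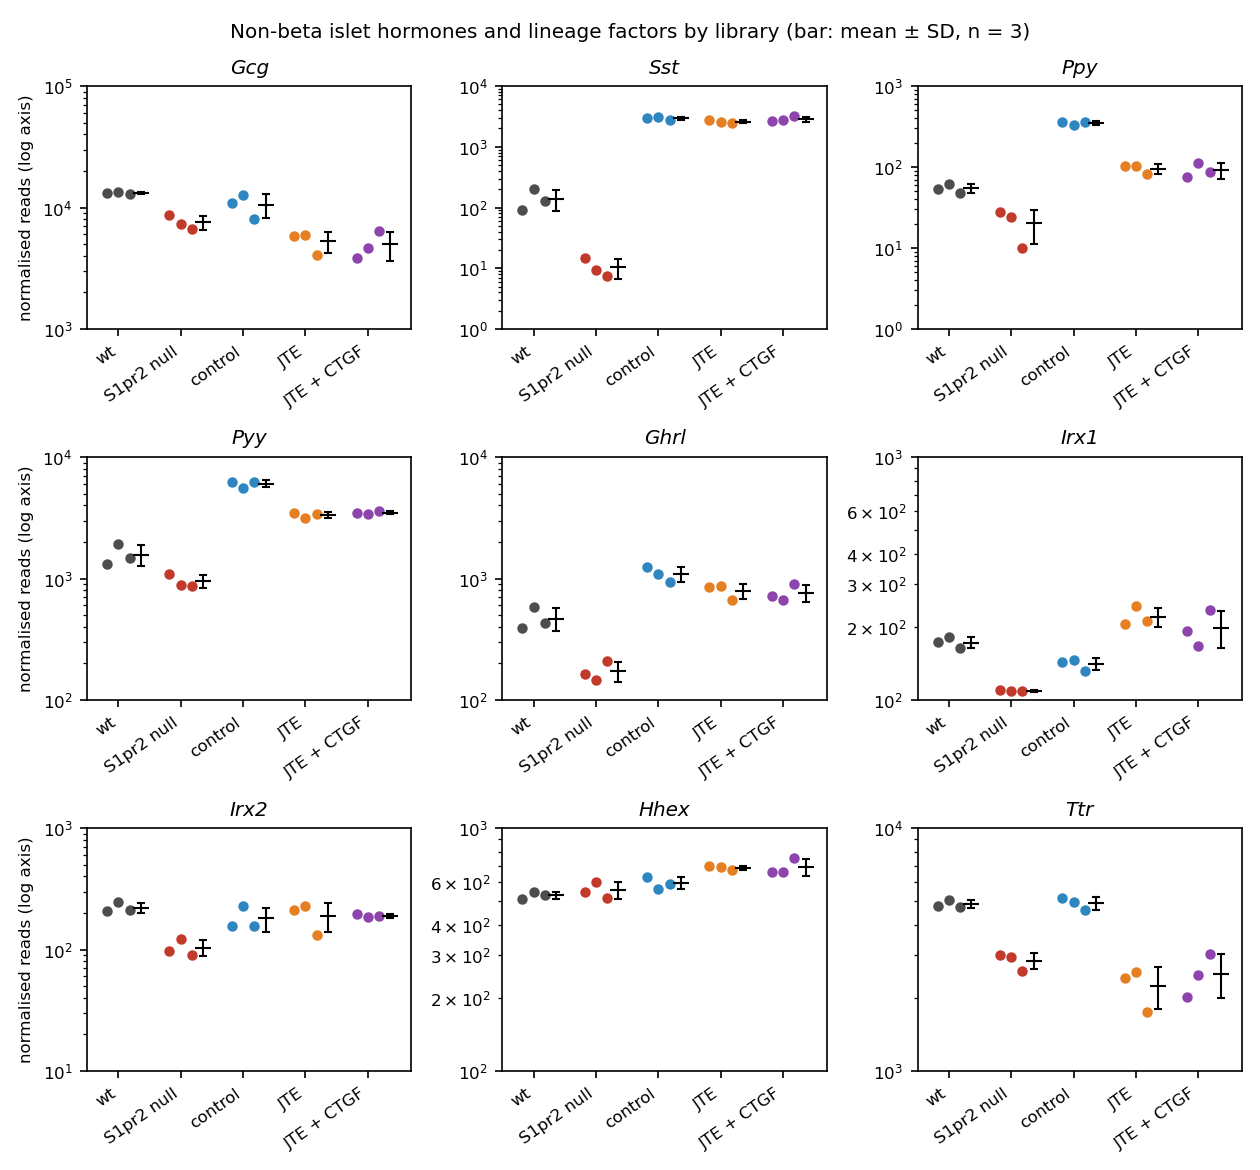
Normalised reads of the 9 genes (y axis, log scale) in each of the 15 libraries, by group (x axis); points are libraries and the bar beside them the mean ± SD of 3. Sst stands at 7.57 to 198 in fresh pancreata and at 2492 to 3148 in explants, while Hhex stays between 511 and 751 in every library.

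Most of the 9 genes were lower under the S1pr2 null label. In edgeR's quasi-likelihood test, with p adjusted over all 16245 genes tested and called below 0.05, 8 of 9 were lower and 0 higher, where 13.3% of all genes tested were lower and 12.6% higher. Their median log2 fold change was −0.80, against −0.01 over all genes. In JTE against control explants 5 of 9 were lower and 2 higher, where 26.2% of all genes were lower and 25.9% higher (52.2% in all). With JTE + CTGF against the same control libraries 5 of 9 were lower and 2 higher, where 33% of all genes were lower and 28.1% higher (61.1% in all). Between control explants and wt, 5 of 9 were higher and 1 lower, where 28.5% of all genes were higher and 29.3% lower (57.8% in all). No gene of the 9 was called between JTE + CTGF and JTE, where 30.4% of all genes were called in either direction. Both treated groups are compared with the same 3 control libraries, so their values are given side by side and not as repeats of each other.

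**Figure D2:**
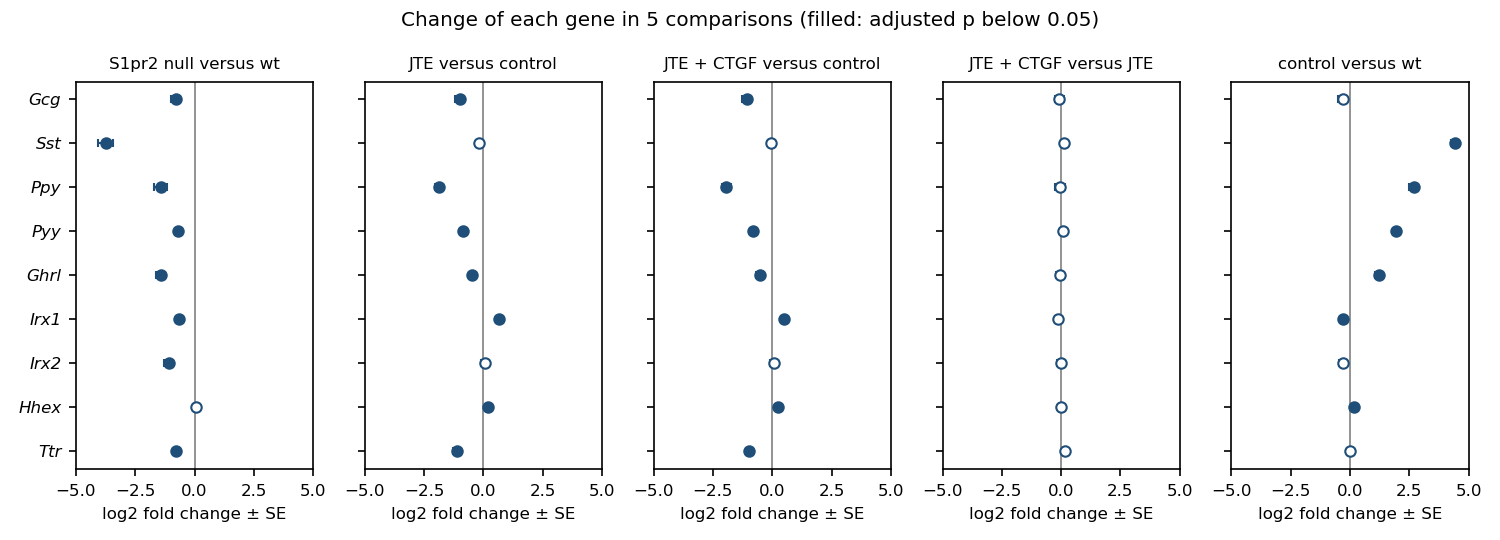
log2 fold change ± SE of each gene (x axis) in 5 comparisons, 3 libraries per group; filled points have an edgeR adjusted p below 0.05. Sst has the largest fall under the null label (−3.74) and the largest rise in culture (4.40), and all points of JTE + CTGF versus JTE are open.

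Glucagon transcript was lower under the null label and in both treated groups. The wt libraries held 13275, 13307 and 12873 normalised Gcg reads and the libraries labelled S1pr2 null 8675, 7317 and 6656. Control explants held 10866, 12724 and 8114, JTE explants 5791, 5921 and 4061 and JTE + CTGF explants 3863, 4643 and 6461. The 2 fresh groups did not overlap, and neither treated group overlapped control, whose own libraries were spread widely. Gcg changed by −0.80 ± 0.18 (SE, edgeR adjusted p = 0.00306) under the null label, which is 1.74-fold lower. It changed by −1.01 ± 0.18 (edgeR adjusted p = 0.000155) with JTE and by −1.08 ± 0.18 (edgeR adjusted p = 5.68e-05) with JTE + CTGF, about 2.01-fold and 2.12-fold lower. From highest to lowest mean the groups ran wt, control, S1pr2 null, JTE and JTE + CTGF, and control overlapped null and JTE overlapped JTE + CTGF. Gcg was the only 1 of the 5 hormone genes that was not higher in control explants than in wt. That difference was −0.32 ± 0.18 (edgeR adjusted p = 0.135), although every control library was below every wt library, and without control 2 it was −0.47 with an edgeR adjusted p of 0.0451.

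Ttr (ENSMUSG00000061808, chr18:20665250-20674324 in mm10), the other abundant alpha cell transcript, followed Gcg closely. Fresh wt libraries held 4784, 5072 and 4713 normalised Ttr reads and those labelled S1pr2 null 3011, 2934 and 2589. In explants the values were 5166, 4964 and 4580.1 in control, 2406, 2562 and 1742 with JTE and 2012, 2493 and 3031 with JTE + CTGF. Wt and control overlapped each other at the top and stood clear of the other 3 groups. The change was −0.77 ± 0.13 (SE, edgeR adjusted p = 0.00035) under the null label, −1.13 ± 0.13 (edgeR adjusted p = 1.94e-06) with JTE and −0.97 ± 0.13 (edgeR adjusted p = 6.82e-06) with JTE + CTGF. Between control and wt Ttr differed by 0.01 ± 0.13 (95% interval −0.26 to 0.28, edgeR adjusted p = 0.936). The ratio of Ttr to Gcg reads stayed between 0.347 and 0.564 in all 15 libraries. Across libraries log2 Ttr and Gcg had a Pearson r of 0.94, and 0.88 after the group means were removed (n = 15). JTE 3 was the lowest JTE library for both genes and control 3 the lowest control library for both.

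Because liver also makes transthyretin, liver genes are given beside it. The summed level of the 10 liver genes was 951 to 1830 normalised reads in wt, 729 to 903 under the null label, 630.4 to 788 in control, 174 to 178 with JTE and 180 to 1232 with JTE + CTGF. With JTE 5 of the 9 tested liver genes were lower than in control, and under the null label 1 of 9 was lower than in wt. Of all genes 26.2% were lower with JTE and 13.3% under the null label. The high value belonged to JTE + CTGF 2, whose Ttr was the middle value of its group. In wt the liver marker Alb ranged from 52 to 416 reads while Ttr counts ranged from 5022 to 5314. What liver RNA adds to the Ttr values was not tested.

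The Iroquois factors Irx1 and Irx2 fell under the null label but not with JTE. Irx1 held 173, 181 and 163 normalised reads in wt and 109.9, 109.0 and 108.5 in the libraries labelled S1pr2 null. It held 143, 147 and 132 in control, 206, 243 and 211 with JTE and 193, 167 and 236 with JTE + CTGF. No 2 compared groups overlapped except JTE and JTE + CTGF. Irx1 was lower under the null label (−0.66 ± 0.12 SE, edgeR adjusted p = 0.000608) and higher with JTE (0.64 ± 0.11, edgeR adjusted p = 0.000166) and with JTE + CTGF (0.50 ± 0.12, edgeR adjusted p = 0.00151). In control it was slightly lower than in wt, by −0.29 ± 0.12 (edgeR adjusted p = 0.0407), and 10 of 21 alternatives did not call it.

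Irx2 held 207, 244 and 210.2 normalised reads in wt against 98.1, 121 and 90.9 under the null label. Its values were 157, 226 and 157 in control, 213, 227 and 132 with JTE and 197, 184 and 187 with JTE + CTGF. The null label gave the lowest 3 of 15 values. Among the other groups wt lay above JTE + CTGF, and every other pair overlapped. Irx2 was 2.13-fold lower under the null label (−1.09 ± 0.18 SE, edgeR adjusted p = 0.000348). With JTE it differed from control by 0.07 ± 0.18 (95% interval −0.30 to 0.45, edgeR adjusted p = 0.758), and with JTE + CTGF by 0.07 ± 0.18 (95% interval −0.31 to 0.45, edgeR adjusted p = 0.755). Per read of Gcg, Irx1 stood at 0.0115 to 0.0163 in control and 0.0356 to 0.0520 with JTE, and Irx2 at 0.0145 to 0.0194 and 0.0325 to 0.0383, so neither ratio overlapped. Gcg, the divisor of both ratios, was itself lower with JTE, and a ratio rises when its divisor falls. In wt and null libraries the Irx1 ratios overlapped, at 0.0127 to 0.0136 and 0.0127 to 0.0163. Those of Irx2 overlapped too, at 0.0156 to 0.0184 in wt and 0.0113 to 0.0165 under the null label.

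Somatostatin gave the widest range of the 9 genes. The 3 wt libraries held 103, 207 and 138 Sst reads and those labelled S1pr2 null 15, 10 and 9. As normalised reads these were 92.7, 198 and 129.5 against 14.7, 9.23 and 7.57. Even the lowest wt library was several times the highest null library. Control explants held 2982, 3105 and 2783 normalised reads, JTE explants 2715, 2595 and 2492 and JTE + CTGF explants 2635, 2759.6 and 3148. Sst was 13.3-fold lower under the null label (−3.74 ± 0.31 SE, edgeR adjusted p = 3.77e-07) and 21.2-fold higher in control explants than in wt (4.40 ± 0.15, edgeR adjusted p = 5.26e-13).

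With JTE, Sst lay below control in each library, yet the difference was −0.19 ± 0.12 (95% interval −0.44 to 0.07, edgeR adjusted p = 0.203). When only the compared libraries were fitted it was −0.19 with an edgeR adjusted p of 0.0284. With JTE + CTGF it was −0.05 ± 0.12 (95% interval −0.31 to 0.20, edgeR adjusted p = 0.711) and the groups overlapped. A fall of Sst with JTE as large as that under the null label lies outside this interval. In the same JTE libraries Ins2, the main insulin gene, changed by −3.70 ± 0.27 (edgeR adjusted p = 1.14e-08), and the ratio of Sst to Ins2 reads rose from 0.114 to 0.123 in control to 1.14 to 1.72 with JTE.

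Hhex, the delta cell factor, did not follow Sst. It held 511, 543 and 530.2 normalised reads in wt and 547, 602 and 515 under the null label, which overlapped. Control explants held 627, 561 and 588, JTE explants 698, 689 and 672 and JTE + CTGF explants 657, 661 and 751. The treated groups were above control in every library, by a small margin. The null label gave 0.07 ± 0.07 (SE, 95% interval −0.08 to 0.21, edgeR adjusted p = 0.496). JTE gave 0.21 ± 0.07 (edgeR adjusted p = 0.0144) and JTE + CTGF 0.22 ± 0.07 (edgeR adjusted p = 0.0108), about 1.16-fold higher in each. Both calls were lost without control 2 (edgeR adjusted p = 0.0692 and 0.0548), and the second also without JTE + CTGF 3 (edgeR adjusted p = 0.0718). Reads of Sst per read of Hhex went from 0.181 to 0.365 in wt to 4.73 to 5.53 in control.

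The 2 genes of the pancreatic polypeptide family lie side by side and moved in the same direction in every comparison that called them, with Ppy by more. Ppy held 60, 65 and 51 reads in wt and 28, 26 and 12 under the null label, which are 54.0, 62.3 and 47.9 against 27.5, 24.0 and 10.1 normalised reads. It held 356, 333 and 362 normalised reads in control, 103, 103 and 80.9 with JTE and 74.3, 113 and 87.7 with JTE + CTGF. The treated explants lay between fresh and control tissue without overlapping either. Ppy fell by 1.43 ± 0.26 (SE, edgeR adjusted p = 0.000641) on the log2 scale under the null label, by 1.88 ± 0.17 (edgeR adjusted p = 1.8e-07) with JTE and by 1.93 ± 0.18 (edgeR adjusted p = 1.01e-07) with JTE + CTGF. The JTE change, 3.67-fold, was the largest among the 9 genes in that comparison.

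Pyy was far more abundant. It held 1325, 1907 and 1471 normalised reads in wt and 1093, 891 and 876 under the null label. It held 6264, 5602 and 6250.4 in control, 3469, 3146 and 3378 with JTE and 3474, 3369 and 3581 with JTE + CTGF. Only the 2 treated groups overlapped. Pyy changed by −0.72 ± 0.11 (SE, edgeR adjusted p = 0.000141) under the null label, by −0.86 ± 0.10 (edgeR adjusted p = 2.82e-06) with JTE and by −0.80 ± 0.10 (edgeR adjusted p = 3.97e-06) with JTE + CTGF. Reads of Ppy per read of Pyy were 0.0325 to 0.0408 in wt, 0.0115 to 0.0269 under the null label, 0.0568 to 0.0594 in control, 0.0240 to 0.0328 with JTE and 0.0214 to 0.0337 with JTE + CTGF. This ratio was thus highest in control explants, in all 3 libraries.

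Ghrl, the ghrelin gene, fell more under the null label than with JTE. Its libraries held 392, 580.4 and 433 normalised reads in wt and 163, 147 and 208 under the null label. They held 1244, 1097 and 930.0 in control, 849.6, 863 and 660.4 with JTE and 721, 661 and 895 with JTE + CTGF. Control lay above both treated groups, though its lowest library came close to their highest. The change was −1.43 ± 0.18 (SE, edgeR adjusted p = 2.38e-05) under the null label, −0.47 ± 0.15 (edgeR adjusted p = 0.0135) with JTE and −0.52 ± 0.15 (edgeR adjusted p = 0.00581) with JTE + CTGF. The call with JTE was lost without control 1 (−0.36, edgeR adjusted p = 0.0702) and without JTE 3 (−0.35, edgeR adjusted p = 0.0598). Mboat4, which adds the fatty acid that ghrelin needs for activity, had 41 to 46 reads in wt and 32 to 55 under the null label, and its change there was 0.05 ± 0.26 (edgeR adjusted p = 0.914).

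Sst, Ghrl and Pyy are also expressed in gut and stomach, so genes of these organs are given beside them. The summed level of 6 intestinal genes was 194 to 238 normalised reads in wt, 115 to 184 under the null label, 381 to 453 in control, 133 to 176 with JTE and 105 to 164 with JTE + CTGF. A single gene, Vil1, had a mean of 155 in wt, 334 in control and 57.7 with JTE. With JTE 2 of the 3 tested intestinal genes were lower and 1 higher, where 26.2% and 25.9% of all genes were. The intestinal markers Cdx1, Cdx2 and Fabp2 had at most 7 reads in any library. The summed level of 6 stomach genes was 558 to 664 in wt, 850.4 to 1034 under the null label, 539.9 to 637 in control, 485 to 507 with JTE and 415 to 591 with JTE + CTGF, and most of it was Barx1, which mesenchyme also expresses. Tff2, another stomach gene, had a mean of 6.51 in wt, 152 in control, 69.2 with JTE and 104 with JTE + CTGF. Of the 4 tested stomach genes 2 were higher and 1, Barx1, lower in control than in wt. Of all genes 28.5% were higher and 29.3% lower there. With JTE 2 of these 4 were lower and 1 higher, where 26.2% and 25.9% of all genes were. The part of the intestinal and stomach genes in the hormone values was not tested.

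Adding CTGF to JTE left the 9 genes where JTE had put them, as far as 3 libraries per group could show. For all 9 the values of the 2 groups overlapped. The differences ran from −0.15 ± 0.11 (SE) for Irx1 to 0.17 ± 0.13 for Ttr, with edgeR adjusted p of 0.345 to 0.995, no unadjusted p under 0.05 and no call by DESeq2. The farthest bound of the 95% intervals ran in size from 0.15 for Hhex to 0.47 for Ppy. A difference inside a gene's own interval could have been missed. The insulin gene Ins1 did differ between these groups, higher by 1.19 ± 0.25 (edgeR adjusted p = 0.00184) with CTGF.

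In control explants Sst, Ppy, Pyy and Ghrl were higher than in fresh wt pancreas, while the alpha cell genes Gcg, Irx1, Irx2 and Ttr were not. Sst was 21.2-fold, Ppy 6.39-fold, Pyy 3.85-fold and Ghrl 2.33-fold higher, with log2 changes of 4.40 ± 0.15 (SE), 2.68 ± 0.19, 1.95 ± 0.11 and 1.22 ± 0.15 and edgeR adjusted p of 5.26e-13, 2.89e-09, 1.59e-10 and 3.13e-06. Gcg, Irx2 and Ttr were not called. Hhex was higher by 0.16 ± 0.07 (edgeR adjusted p = 0.0499), and 12 of 21 alternatives did not call it. The progenitor factor Neurog3 was lower by 2.44 ± 0.19 (edgeR adjusted p = 9.94e-09) on the log2 scale in the same comparison. Culture, elapsed time and the dissected part changed together between these groups and cannot be told apart. With library totals as the scaling, the median of all genes shifted by −0.17 and 33.0% rather than 49.3% of the called genes were higher, and the 4 rises above were called under that scaling too.

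The responses to the null label and to JTE were compared directly, by an interaction term over all 15 libraries. It was called for 4 of the 9 genes, all in the direction of a higher value in the JTE response, where 21.5% of all genes tested were called in that direction and 42.9% in either. The difference was 3.55 ± 0.34 (SE, edgeR adjusted p = 6.72e-07) for Sst, 1.30 ± 0.16 (edgeR adjusted p = 9.82e-06) for Irx1, 1.17 ± 0.25 (edgeR adjusted p = 0.00146) for Irx2 and 0.97 ± 0.23 (edgeR adjusted p = 0.00292) for Ghrl. Ghrl was lower in both comparisons, Sst and Irx2 were called lower under the null label alone, and Irx1 moved in opposite directions. For the other 5 genes no difference was called. Its 95% interval was −0.73 to 0.32 for Gcg, −1.13 to 0.24 for Ppy, −0.45 to 0.17 for Pyy, −0.06 to 0.35 for Hhex and −0.75 to 0.02 for Ttr. The 2 responses were measured in different tissue states, with fresh whole pancreas for one and cultured buds for the other, and genotype against drug cannot be told apart from that.

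**Figure D3:**
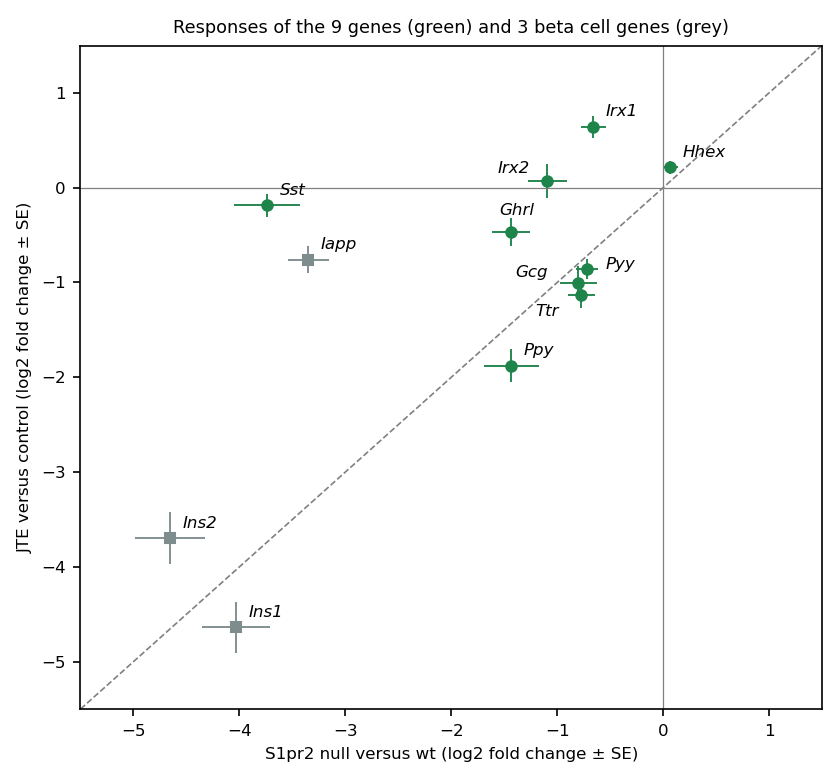
log2 fold change ± SE of 9 genes (green) and 3 beta cell genes (grey squares) in S1pr2 null versus wt (x axis) and JTE versus control (y axis); the dashed line marks equal change. Gcg, Pyy, Ttr and Ppy lie near the line, and Sst (−3.74 and −0.19) and Iapp (−3.35 and −0.76) lie far above it.

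The beta cell genes served as comparators. Of 10 listed, 7 were lower and 3 not called under the null label (median −2.64), where 13.3% of all genes were lower. With JTE 8 were lower and 1 higher (median −1.04), where 26.2% of all genes were lower and 25.9% higher. Only Ins1, Ins2 and Iapp are given by value. Ins1 changed by −4.03 ± 0.32 (SE) under the null label and −4.64 ± 0.27 with JTE, and Ins2 by −4.65 ± 0.33 and −3.70 ± 0.27, so the fitted falls of the insulin genes were larger than those of all 9 genes in both comparisons. Whether they differ from that of Sst under the null label was not tested. Iapp, which encodes amylin of beta and some delta cells, behaved more like Sst. It changed by −3.35 ± 0.19 (edgeR adjusted p = 4.11e-09) under the null label and −0.76 ± 0.14 (edgeR adjusted p = 0.000268) with JTE, an interaction of 2.59 ± 0.24 (edgeR adjusted p = 3.85e-07).

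The make-up of the hormone transcripts differed between groups. Shares were taken of reads per kilobase over 8 hormone genes (Gcg, Sst, Ppy, Pyy, Ghrl, Ins1, Ins2 and Iapp), and a share also rises when the other genes fall. Gcg made up 51.0% ± 6.4 (SD, n = 3) in wt and 69.8% ± 2.4 under the null label, although its own level was lower there. In explants it was 8.53% ± 1.6 in control, 14.6% ± 1.7 with JTE and 12.1% ± 1.4 with JTE + CTGF. Sst made up 1.31% ± 0.32 in wt, 0.238% ± 0.056 under the null label, 5.98% ± 0.27 in control, 18.1% ± 1.0 with JTE and 17.5% ± 1.1 with JTE + CTGF. Control and JTE libraries did not overlap in either gene, and Ppy hardly differed between them, at 0.850% ± 0.074 and 0.794% ± 0.040. Pyy rose from 11.6% ± 1.1 in control to 22.1% ± 2.5 with JTE, and Ghrl from 2.49% ± 0.21 to 6.23% ± 0.38. Without length correction the order of the groups for Gcg and Sst was the same, with Gcg at 66.7% in wt and Sst at 12.7% with JTE.

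**Figure D4:**
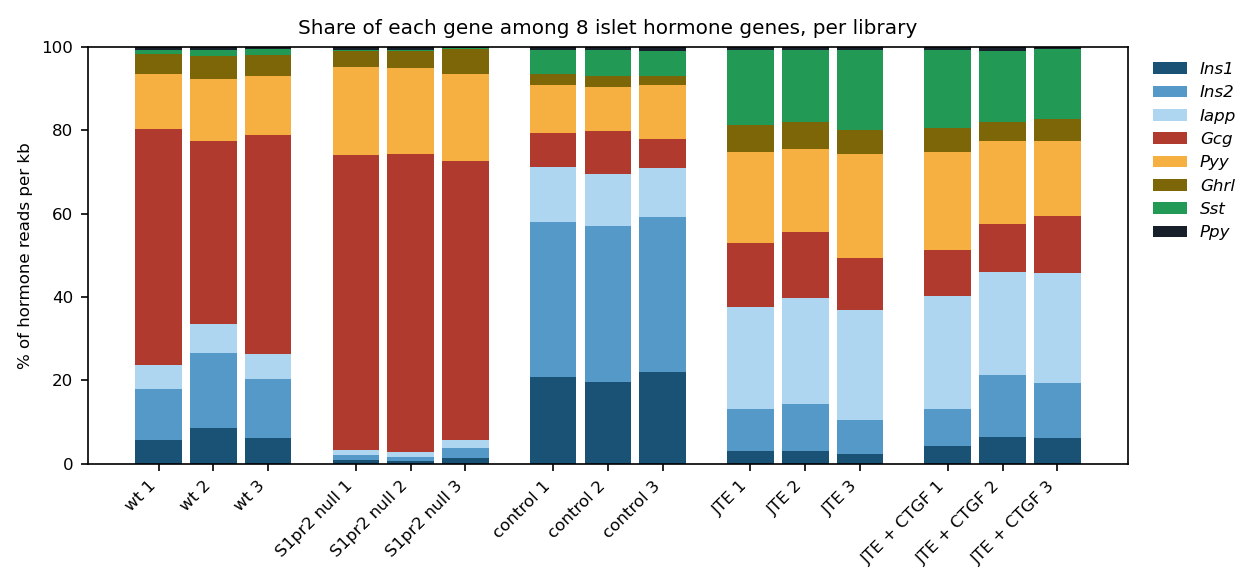
Share of each of 8 hormone genes in reads per kilobase (y axis, %) in the 15 libraries (x axis); the colours add up to 100%. Gcg (red) takes 51.0% on average in wt and 69.8% under the null label, and Sst (green) widens from 5.98% in control to 18.1% with JTE.

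Other genes of the same cell types were counted in lists. Over all genes tested, 13.3% were lower and 12.6% higher under the null label, and 26.2% and 25.9% with JTE. These shares stand beside every list count below. Under the null label 6 of 10 further alpha cell genes were lower and 0 higher (median −0.50, against −0.01 for all genes), among them Cryba2 (−1.49 ± 0.20) and the vitamin D carrier Gc (−0.92 ± 0.11). With JTE 7 of 10 were lower and 0 higher (median −0.71, against 0 for all genes), with Cryba2 at −1.84 ± 0.18 and Gc at −1.33 ± 0.11.

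Of 6 further delta cell genes 4 could be tested. The retinol carrier Rbp4 was the 1 lower under the null label (−0.90 ± 0.07, edgeR adjusted p = 2.11e-07), and with JTE 3 of 4 were lower, Rbp4 by less (−0.36 ± 0.07, edgeR adjusted p = 0.000319). The ghrelin receptor gene Ghsr had at most 1 read in any library. Of the 2 epsilon cell genes Acsl1 fell under the null label (−0.51 ± 0.13, edgeR adjusted p = 0.00935) and rose with JTE (0.83 ± 0.12, edgeR adjusted p = 2.51e-05), which is the direction of Irx1. Mboat4 was lower with JTE (−0.83 ± 0.34, edgeR adjusted p = 0.0474).

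The machinery that packs and cuts the hormones was lower too. All 5 granins, the storage proteins of the granule, were lower under the null label (median −1.33), and 4 of 5 with JTE (median −0.73). Scg3 resembled Sst, at −1.37 ± 0.10 (edgeR adjusted p = 1.56e-07) under the null label and −0.08 ± 0.08 (edgeR adjusted p = 0.448) with JTE. All 5 prohormone processing genes were lower in both comparisons, with medians of −1.02 and −0.72. Pcsk2, which cuts proglucagon to glucagon, fell by 1.47 ± 0.09 and 0.72 ± 0.08 on the log2 scale, and Pcsk1 by 1.45 ± 0.11 and 0.98 ± 0.09. Of 15 islet transcription factors 10 were lower and 0 higher under the null label (median −0.42), led by Pax6 (−0.97 ± 0.10), which activates the Gcg promoter. With JTE 9 were lower and 1 higher (median −0.25), and Pax6 stood at −0.25 ± 0.09 (edgeR adjusted p = 0.0324). Neurog3 was at −0.42 ± 0.17 (edgeR adjusted p = 0.0718) under the null label and −0.53 ± 0.21 (edgeR adjusted p = 0.0427) with JTE.

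Among the receptors for these hormones, the glucagon receptor gene Gcgr had 12 to 36 reads in wt, 20 to 27 under the null label, 216 to 312 in control, 17 to 23 with JTE and 14 to 20 with JTE + CTGF. It was therefore lower with JTE by 3.74 ± 0.25 (edgeR adjusted p = 3.67e-09) on the log2 scale, a larger fitted change than that of any of the 9 genes. Of the 10 receptor genes tested 5 were lower and 1 higher with JTE (median −0.34), and 3 were lower and 1 higher under the null label (median −0.43). Of all genes tested, 52.2% were called in either direction with JTE and 25.8% under the null label. Among 9 gut and neural peptide genes tested, 3 were lower under the null label (median −0.44) and 6 with JTE (median −1.15), with Npy, a relative of Pyy and Ppy, at −3.12 ± 0.37 and −2.31 ± 0.24.

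Markers of the whole epithelium and of other cells were counted too. Of all genes tested, 13.3% were lower and 12.6% higher under the null label, and 26.2% and 25.9% with JTE. Of 8 epithelial genes 7 were lower under the null label (median −0.43). With JTE 4 were lower and 4 not called (median −0.34), where 52.2% of all genes were called in either direction. The part of the epithelial genes in the hormone changes was not tested. Their summed level was 27002 to 29132 normalised reads in wt, 19910.1 to 21057 under the null label, 37637 to 42592 in control and 25760 to 32117 with JTE. Among cells outside the epithelium, 0 of 6 endothelial genes were called under the null label (median 0.10), and 5 were lower with JTE (median −0.48). Of 7 acinar genes tested all 7 were lower under the null label (median −1.48), with 1 higher and 0 lower with JTE (median 0.32). All 6 macrophage genes were lower with JTE (median −1.19) and 1 of 6 under the null label (median 0.09).

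The patterns of the 9 genes over the 15 libraries were compared with those of 13749 other protein-coding genes, by Pearson r of their depth-scaled log2 counts. These values describe mainly the differences between the 5 groups, which all points share. The granin Scg3 was the gene most like Sst (r = 0.995), and the granin Scg2 was second for Pyy (0.988), after Lrp11 (0.990). For Ghrl they were Anxa4 (0.990), Syt13 (0.986) and the islet factor Neurod1 (0.985). For Gcg they were Chd1l (0.968) and 2 chaperones of the endoplasmic reticulum, Hsp90b1 (0.967) and Pdia6 (0.959). Ppy was nearest to Cdh16 (0.975), Abcc6 (0.973) and the duct keratin Krt19 (0.973), and Ttr to Bok (0.972), Rhbdl2 (0.961) and Cpn1 (0.958). The factor genes were nearest to Qsox2 (0.947) for Irx1, Tcte2 (0.957) and the acinar factor Rbpjl (0.936) for Irx2, and Bbs9 (0.963) for Hhex. Among the 9 genes themselves, with group means removed, Sst and Pyy had r = 0.89 and Gcg and Ttr 0.88, while Irx1 and Irx2 had 0.30 (n = 15).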

How the data were processed

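The authors aligned single-end strand-specific reads to mm10 with GSNAP and counted uniquely mapped reads per Ensembl 69 gene with featureCounts 1.4.6. The deposited values are raw counts, not normalised; whether strand was used in counting is not given in the sources used here. Symbols came from GENCODE M21 and matched 24750 of 25292 genes. Here edgeR 4.0.16 (R 4.3.3; TMM, filterByExpr, 1 coefficient per group, all 15 libraries) gave quasi-likelihood tests over 16245 genes, with Benjamini-Hochberg adjustment and calls below 0.05. SE is the size of the log2 fold change divided by the square root of F. Totals of 11402804 to 13828737 reads and 3 libraries per group set the precision, with a biological coefficient of variation of 7.3%. The scripts were tested on simulated data. Beside the 9 genes, the text names up to 3 called genes of each list with the largest changes whose mean exceeded 100 normalised reads in at least 1 group, fixed comparators (Ins1, Ins2, Iapp, Pax6, Neurog3, the processing genes) and the 3 genes most correlated with each of the 9. Mboat4, Ghsr, Cdx1, Cdx2 and Fabp2 fall outside this rule and were chosen after their values were seen. The 9 genes and all lists were chosen with earlier results of these data known. Alternatives were DESeq2 1.42.0, other size factors, no filter, only the compared libraries, a replicate block, leaving out each library and the study's own criterion. Some comparators are not reported here.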

Additional observations from a re-analysis of the deposited data

Results flagged for a closer look

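For 4 of the 9 genes the response to JTE and the response under the S1pr2 null label differed by a test of the difference itself, the edgeR interaction term over all 15 libraries. Of all genes tested, 42.9% were called in the same test in either direction, a share close to that of the 9 genes, and 21.5% in the direction of these 4. The JTE response was higher by 3.55 ± 0.34 (SE, log2, edgeR adjusted p = 6.72e-07) for Sst, by 1.30 ± 0.16 (edgeR adjusted p = 9.82e-06) for Irx1, by 1.17 ± 0.25 (edgeR adjusted p = 0.00146) for Irx2 and by 0.97 ± 0.23 (edgeR adjusted p = 0.00292) for Ghrl. All 4 were called in each of the 21 alternatives that gave a value.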

How the results depend on the processing

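Each change was refitted in 21 alternatives, 189 values over the 9 genes in each comparison, and under the null label all 189 kept direction and call. Of the others, 181 did so with JTE, 185 with JTE + CTGF, 172 between these groups, 159 between control and wt and 186 for the interaction. Under the criterion of the study (adjusted p up to 0.1, mean count over 100, fold below 0.6 or above 1.6) the genes called were 5 rather than 8 under the null label, 4 rather than 7 with JTE and 4 rather than 7 with JTE + CTGF. Leaving out each library gave 8 to 8, 6 to 7 and 6 to 7 in these, 0 to 0 for JTE + CTGF versus JTE, 4 to 7 for control versus wt and 4 to 5 for the interaction. Direction reversed only for changes near 0. Leaving out each library, Irx2 ranged from −0.073 to 0.28 with JTE and −0.021 to 0.27 with JTE + CTGF, and Ttr from −0.025 to 0.062 between control and wt. For JTE + CTGF versus JTE the ranges were −0.31 to 0.079 for Gcg, −0.24 to 0.078 for Ppy, −0.19 to 0.033 for Ghrl, −0.18 to 0.14 for Irx2 and −0.059 to 0.039 for Hhex. There Irx2 was also 0.013 with DESeq2's size factors, 0.026 without a filter, 0.0089 with only the compared libraries, 0.0087 by DESeq2 and 0.014 with the replicate block, and Hhex was −0.024 with library totals. Ttr between control and wt was −0.13 with library totals. The cause was not tested. Calls were gained too. Between control and wt Gcg was called with library totals (−0.46, edgeR adjusted p = 0.0199) and without a filter (−0.29, edgeR adjusted p = 0.0345), and Irx2 with library totals (−0.43, edgeR adjusted p = 0.0296) and without control 2 (−0.49, edgeR adjusted p = 0.0311). For the interaction Ppy was called without S1pr2 null 3 (−0.79, edgeR adjusted p = 0.0315), Pyy without wt 2 (−0.30, edgeR adjusted p = 0.0499) and Ttr without a filter (−0.35, edgeR adjusted p = 0.0338).

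Replicate numbers showed no clear pairing of the libraries. In their deviations from the group means, same-numbered libraries of different groups correlated from −0.11 to 0.25 (median −0.011, 30 pairs). Differently numbered libraries of different groups correlated from −0.24 to 0.16 (median 0.006, 60 pairs). With the replicate block, 2 calls between control and wt were lost, Irx1 at −0.29 (edgeR adjusted p = 0.0548) and Hhex at 0.17 (edgeR adjusted p = 0.0684). With 9 to 15 Sst reads and 12 to 28 Ppy reads per library under the null label, counting error is a large part of those values.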
